A study of Canis lupus familiaris with 6 samples.

Results

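The PDGF, MET and KIT receptor kinases and their ligands were followed in canine mammary tumor cells grown with or without myeloid-derived suppressor cells (MDSCs). The group holds 10 genes of the 13685 gene names on the array: the ligand genes PDGFA, PDGFB, PDGFC and HGF, and the receptor genes PDGFRA, PDGFRB, MET, KIT, AXL and IGF1R. A member was every probe whose gene name in the scanner output equals one of these symbols, which gave 16 of 43603 non-control probes. 5 genes have 1 probe, 4 genes have 2 and KIT has 3, and all 16 probes passed the filter on low signal.

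The cells were 3 canine mammary tumor lines: P114, derived from an anaplastic cancer, CMT-U27, from a simple carcinoma, and CMT-U309, from a spindle cell mammary tumor. Each line was grown alone (monoculture) or in co-culture, for at least 72 h by the sample labels and for a shorter time by the methods of the study, below tissue culture inserts that held MDSCs taken by cell sorting from blood of dogs without tumors. RNA of both cultures of a line was hybridised to the same 2-colour array and again with the dyes exchanged, so that 6 arrays carry 6 RNA samples in 12 channels. Replicate 1 has the co-culture RNA in Cy5 and replicate 2 has it in Cy3, and both replicates carry the same RNA pair. A line is a single culture pair, and each slide held 1 line, so that slide and line cannot be told apart.

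Receptor tyrosine kinases are membrane proteins, most of which pair up when they bind a growth factor and phosphorylate each other on tyrosines. Adaptors of the RAS and PI3K pathways then bind to these tyrosines. PDGF chains form dimers that bind the receptors encoded by PDGFRA and PDGFRB, which are best known from fibroblasts and other mesenchymal cells. HGF is made mostly by mesenchymal cells and binds MET, which is typical of epithelium. KIT is the receptor of stem cell factor (KITLG) and is known from mast cells, melanocytes and luminal progenitors of the mammary gland. AXL binds GAS6, and IGF1R binds the insulin-like growth factors.

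The markers of the labelled cell types differed between the lines. Of 7 epithelial markers on the array, 6 were called higher in CMT-U27 than in P114 and 6 higher than in CMT-U309, among them EPCAM (log2 level 15.42 in CMT-U27, 9.18 in P114 and 6.68 in CMT-U309). All 8 mesenchymal markers were well above background in all 4 channels of P114 and of CMT-U309, and 7 were called lower in CMT-U27 than in each of these lines. Over all probes 24.2% were called between P114 and CMT-U27 and 28.9% between CMT-U27 and CMT-U309. ESRP1, an epithelial splicing factor, was well above background in 0 of 4 P114 channels, and the tight junction gene CLDN4 in 0 of 4 CMT-U309 channels. ESRP1 was detected in all 4 CMT-U309 channels, at a mean level of 6.69 against 10.25 in CMT-U27. MUC1, an epithelial mucin, was called the other way, at 8.63 in P114 and 8.15 in CMT-U309 against 3.62 in CMT-U27. The 2 collagen genes COL1A1 and COL3A1 were each well above background in 1 of 4 CMT-U27 channels.

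Several probes carry letters that belong to known kinase motifs, and these are printed with other probes of the genes called between lines. The brightest MET and PDGFRB probes, which hold none of these motifs, are not shown. Capitals mark the codons of the Asp-Phe-Gly motif that opens the activation loop of kinases (GAC or GAT, TTC or TTT, then GG and any base), of the Asp-Val-Trp-Ser motif of the kinase domain, and of the tyrosine motif that the regulatory subunit of PI3K binds once it is phosphorylated (TAC or TAT, any pair of codons, then ATG). They were searched on the probe strand in reading frames without a stop codon, and were found in 0.213%, 0.0115% and 1.2% of the 43603 probes.
KIT, brightest probe: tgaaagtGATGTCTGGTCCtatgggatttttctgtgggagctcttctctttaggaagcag
KIT, second probe: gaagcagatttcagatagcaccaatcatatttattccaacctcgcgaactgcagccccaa
HGF: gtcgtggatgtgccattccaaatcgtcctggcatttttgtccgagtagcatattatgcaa
IGF1R, brightest probe: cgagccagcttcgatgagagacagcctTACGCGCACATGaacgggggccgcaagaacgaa
IGF1R, second probe: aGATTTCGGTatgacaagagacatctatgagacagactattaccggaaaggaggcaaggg
PDGFRB, second probe: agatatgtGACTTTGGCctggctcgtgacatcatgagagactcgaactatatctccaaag
AXL, brightest probe: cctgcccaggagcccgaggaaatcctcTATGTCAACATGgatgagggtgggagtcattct
AXL, second probe: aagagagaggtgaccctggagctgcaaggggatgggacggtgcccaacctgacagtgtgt
MET, second probe: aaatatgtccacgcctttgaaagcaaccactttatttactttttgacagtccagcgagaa
PDGFC: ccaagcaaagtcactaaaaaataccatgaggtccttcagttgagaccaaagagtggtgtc
PDGFRA: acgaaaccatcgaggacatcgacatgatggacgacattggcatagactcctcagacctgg

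By the coordinates in the scanner output (canFam2), the brightest KIT probe lies on the plus strand at chr13:50120229-50120401, the second at chr13:50120926-50122041 and the third at chr13:50093321-50107395. Each of these stretches is longer than the 60 bases of the probe, so that the letters of a KIT probe come from more than 1 block of the genome. PDGFRA lies on the same chromosome at chr13:49705792-49705851. The HGF probe maps to the minus strand at chr18:24320567-24320626. The IGF1R probes map to chr3:44947023-44947081 and, over more than 1 block, chr3:44928701-44933280. AXL was measured at chr1:115610022-115610081 and chr1:115621587-115621646, both on the minus strand, MET at chr14:58674385-58674444 and chr14:58591839-58591898, and PDGFRB at chr4:62165759-62165818 and chr4:62160460-62160519. The ligand probes lie at chr6:19299051-19299110 for PDGFA, chr10:28884021-28884080 for PDGFB and, over more than 1 block, chr15:57165903-57171742 for PDGFC. Exon and UTR annotation of this build was not used here.

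Levels are given as the log2 of the processed signal, which the scanner software corrects for background and dye, with all 12 channels brought to 1 median. Such a level is read for 1 probe across samples and not between probes. A probe counts as detected in a channel where the software flags it as well above background. At the brightest probe, 7 of the 10 genes were well above background in all 12 channels, and HGF, KIT and PDGFB were not. No member probe was saturated or flagged as an outlier. The precision of these values is limited by the number of arrays.

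For the differences between lines, the RNA samples were fitted in limma with line and culture as terms, and a probe was called where the Benjamini-Hochberg adjusted p was under 0.05 and the difference over 2-fold. The replicate error in this fit is how unevenly the lines respond to co-culture, with 2 residual degrees of freedom before the shrinkage of limma. Among all 40873 probes tested, 24.2% were called between P114 and CMT-U27, 14.5% between P114 and CMT-U309 and 28.9% between CMT-U27 and CMT-U309. The median difference of all probes was 0.15, 0.15 and 0.04 on the log2 scale. Of the 10 genes, 5 were called at the brightest probe in each of these comparisons. They were AXL, IGF1R, KIT, PDGFC and PDGFRA between P114 and CMT-U27, HGF, MET, PDGFC, PDGFRA and PDGFRB between P114 and CMT-U309, and AXL, HGF, IGF1R, KIT and MET between CMT-U27 and CMT-U309. Over all member probes, 9 of 16, 7 of 16 and 9 of 16 were called.

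**Figure D1:**
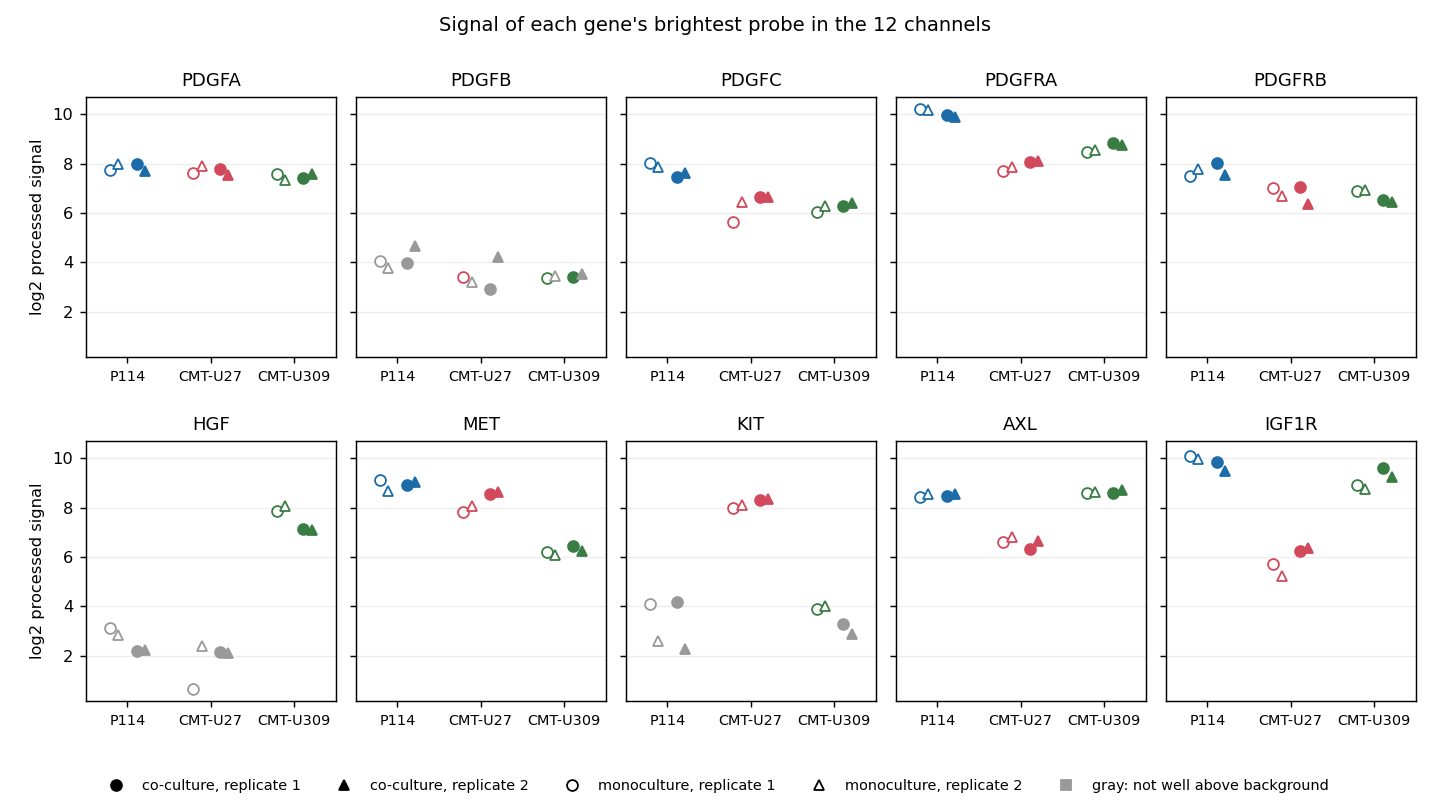
Log2 processed signal (vertical axis) of the brightest probe of each gene in the 3 cell lines (horizontal axis), with 1 point per channel. Filled points are co-culture and open points monoculture, circles are replicate 1 and triangles replicate 2, and gray points were not well above background. Values are read within a panel. HGF was detected in CMT-U309 only, and KIT in all 4 channels of CMT-U27 and 2 of CMT-U309.

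Among the ligands, HGF was detected in CMT-U309 and in neither of the other lines. Its log2 level in CMT-U309 was 7.86 and 8.07 in monoculture and 7.13 and 7.11 in co-culture. In P114 the signal was 3.12 and 2.82 in monoculture and 2.20 in both co-culture channels, and in CMT-U27 it was 0.63 and 2.40, then 2.13 and 2.10. None of these 8 channels was well above background, and all lay below every CMT-U309 channel. HGF was therefore at least 9.65-fold higher in CMT-U309 than in P114 (adjusted p = 1.46e-05 in limma) and at least 13.0-fold higher than in CMT-U27 (adjusted p = 2.19e-06 in limma). With normexp background correction, loess and Aquantile normalization, P114 minus CMT-U309 was -1.545 on the log2 scale. That was still called but is smaller than the bound, which thus depends on the processing. For such bounds signals were normalized by loess and Aquantile. In each channel the dim line was raised to the lowest signal that any detected probe had there, where its own signal was lower.

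PDGFC, a PDGF chain that binds mainly PDGFRA after its CUB domain has been cleaved off, was highest in P114. Its level there was 8.01 and 7.87 in monoculture and 7.46 and 7.63 in co-culture, against 5.65, 6.45, 6.66 and 6.67 in CMT-U27 and 6.05, 6.27, 6.27 and 6.39 in CMT-U309. The P114 channels all lay above those of the other lines. The difference was 1.39 on the log2 scale over CMT-U27 (SE 0.25, adjusted p = 0.00138 in limma) and 1.50 over CMT-U309 (SE 0.25, adjusted p = 0.00142 in limma). Both differences fell below 2-fold with normexp background correction, loess and Aquantile normalization, at 0.48 and 0.56.

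PDGFA, the chain whose dimer binds PDGFRA, stood close to the same level in all lines. Its channels ranged from 7.69 to 7.99 in P114, from 7.54 to 7.90 in CMT-U27 and from 7.34 to 7.60 in CMT-U309. The largest difference, between P114 and CMT-U309, was 0.36 (95% interval -0.01 to 0.74, adjusted p = 0.137 in limma), which does not reach 2-fold at either end. PDGFB, the chain whose dimer binds both PDGF receptors, was well above background in 3 of 12 channels, 1 of CMT-U27 and 2 of CMT-U309. No fold is given for PDGFB, and none of its comparisons was called.

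Among the receptors, KIT stood apart in CMT-U27. Its brightest probe, which carries the Asp-Val-Trp-Ser codons, had levels of 7.99 and 8.10 in monoculture and 8.32 and 8.34 in co-culture of CMT-U27. The CMT-U309 levels were 3.88 and 4.01 in monoculture, where the probe was well above background, and 3.30 and 2.88 in co-culture, where it was not. In P114 the signal was 4.09 and 2.58 in monoculture and 4.17 and 2.25 in co-culture, with 0 of 4 channels well above background. Every CMT-U27 channel was thus above every channel of the other lines. The difference between CMT-U27 and CMT-U309 was 4.67 (SE 0.32, adjusted p = 1.52e-06 in limma), with 2 of 4 CMT-U309 channels at the background, and KIT was at least 13.4-fold higher in CMT-U27 than in P114 (adjusted p = 1.19e-06 in limma). With normexp background correction, loess and Aquantile normalization, the difference between CMT-U27 and CMT-U309 was 1.53 and P114 minus CMT-U27 was -1.56, both still called.

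The other KIT probes also placed CMT-U27 highest. The second probe ranged from 8.04 to 8.48 in CMT-U27 and was detected in 0 channels of the other lines, which puts CMT-U27 at least 14.7-fold above P114 and at least 30.0-fold above CMT-U309. The third probe, at 4.42 to 4.98 in CMT-U27 and without detection elsewhere, allowed bounds of at least 1.43-fold and at least 3.09-fold. Between P114 and CMT-U309 the brightest probe was not called, and its small difference of -0.25 (95% interval -0.96 to 0.47) was called at -1.11 without replicate 1 of P114 and turned to 0.61 without replicate 2. The mast cell genes CPA3 and FCER1A were well above background in 0 of 12 channels and MS4A2 in 2, both in CMT-U309. MITF, a transcription factor of melanocytes and mast cells, was detected in all 12, at mean levels of 7.56 (P114), 7.97 (CMT-U27) and 7.49 (CMT-U309). Of the melanocyte genes, MLANA was well above background in all 4 channels of CMT-U27 (mean level 7.66), 3 of CMT-U309 (4.32) and 0 of P114 (3.17), and was thus highest in the same line as KIT. PMEL was detected in all 12 channels, DCT in 9 and TYR in 6, and each had its lowest mean level in CMT-U27. PMEL stood at 12.10 (P114), 11.20 (CMT-U27) and 12.23 (CMT-U309). In the same order DCT stood at 5.56, 5.00 and 5.57, and TYR at 3.75, 3.53 and 4.65. The part of these cell types in the KIT difference was not tested.

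IGF1R was lower in CMT-U27 than in the other lines. At the brightest probe the P114 levels were 10.12 and 9.99 in monoculture and 9.85 and 9.48 in co-culture, and the CMT-U309 levels were 8.94 and 8.77, then 9.60 and 9.24. In CMT-U27 they were 5.70 and 5.25 in monoculture and 6.23 and 6.37 in co-culture, without overlap with either line. P114 exceeded CMT-U27 by 3.97 (SE 0.26, adjusted p = 1.19e-06 in limma), or 15.7-fold, and CMT-U309 exceeded it by 9.52-fold (adjusted p = 4.27e-06 in limma). With normexp, loess and Aquantile these were smaller but still called, at 1.85 for P114 minus CMT-U27 and -1.46 for CMT-U27 minus CMT-U309. P114 and CMT-U309 differed by 0.72 (95% interval 0.14 to 1.29, adjusted p = 0.0622 in limma), which was not called. The second probe, with the Asp-Phe-Gly codons, was well above background in 0 of 4 CMT-U27 channels and gave at least 14.2-fold for P114 and at least 7.91-fold for CMT-U309 over CMT-U27.

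MET was lower in CMT-U309, the line in which its ligand gene HGF was detected. The brightest MET probe ranged from 6.09 to 6.43 in CMT-U309, from 7.83 to 8.62 in CMT-U27 and from 8.70 to 9.13 in P114, so that the lines did not overlap. P114 exceeded CMT-U309 by 2.71 (SE 0.19, adjusted p = 4.15e-06 in limma), or 6.55-fold, and CMT-U27 exceeded it by 2.04 (SE 0.19, adjusted p = 1.29e-05 in limma), or 4.12-fold. The second probe gave 2.14 and 2.09, both called. Between P114 and CMT-U27 the brightest probe differed by 0.67 (adjusted p = 0.0173 in limma), less than 2-fold, and the second by 0.05 (adjusted p = 0.830 in limma). With normexp background correction, loess and Aquantile normalization the difference between CMT-U27 and CMT-U309 was 0.96, just under 2-fold, and that between P114 and CMT-U309 was 1.58.

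AXL depended on the probe. Its brightest probe, with the PI3K-binding tyrosine codons, ranged from 8.42 to 8.55 in P114 and from 8.60 to 8.70 in CMT-U309, and was lower in CMT-U27, at 6.34 to 6.81. P114 exceeded CMT-U27 by 1.90 (SE 0.17, adjusted p = 1.11e-05 in limma) and CMT-U309 exceeded it by 4.09-fold (adjusted p = 5.56e-06 in limma). With normexp, loess and Aquantile, P114 minus CMT-U27 was 1.07 and CMT-U27 minus CMT-U309 was -1.27, both called. The second AXL probe, at 4.63 to 5.34 in P114, 5.16 to 5.39 in CMT-U27 and 5.51 to 5.78 in CMT-U309, was called in no comparison. Its difference between P114 and CMT-U27 was -0.22 (95% interval -0.78 to 0.35), an interval that leaves out the value of the brightest probe. This second probe was well above background in 3 of 4 channels of P114 and of CMT-U309.

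PDGFRA, the receptor of PDGF-AA and PDGF-CC, was highest in P114, where PDGFC was also highest. Its levels were 10.24 and 10.17 in P114 monoculture and 9.99 and 9.90 in co-culture, from 8.50 to 8.83 in CMT-U309 and from 7.71 to 8.13 in CMT-U27. The 3 lines did not overlap. P114 exceeded CMT-U27 by 2.14 (SE 0.18, adjusted p = 7.29e-06 in limma), or 4.40-fold, and CMT-U309 by 1.41 (SE 0.18, adjusted p = 0.000255 in limma), or 2.66-fold. CMT-U27 stood below CMT-U309 by 1.66-fold (adjusted p = 0.00716 in limma), under the 2-fold threshold. With normexp, loess and Aquantile, P114 exceeded CMT-U27 by 1.69 and CMT-U309 by 1.002. Both were called, the second barely past 2-fold.

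PDGFRB, the receptor of PDGF-BB and PDGF-DD, was close to the threshold. Its brightest probe ranged from 7.50 to 8.02 in P114, from 6.35 to 7.04 in CMT-U27 and from 6.47 to 6.92 in CMT-U309, so that P114 lay above both. P114 exceeded CMT-U309 by 1.01 (SE 0.20, adjusted p = 0.00402 in limma), which was called, and CMT-U27 by 0.94 (SE 0.20, adjusted p = 0.00392 in limma), which was not. The first of these fell below 2-fold with quantile normalization (0.998), without replicate 1 of P114 (0.96) and with normexp (0.61), and the second passed it without replicate 1 of CMT-U27 (1.20). The second probe, with the Asp-Phe-Gly codons, was called against both lines, at 1.36 (adjusted p = 0.00187 in limma) and 1.62 (adjusted p = 0.00108 in limma).

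**Figure D2:**
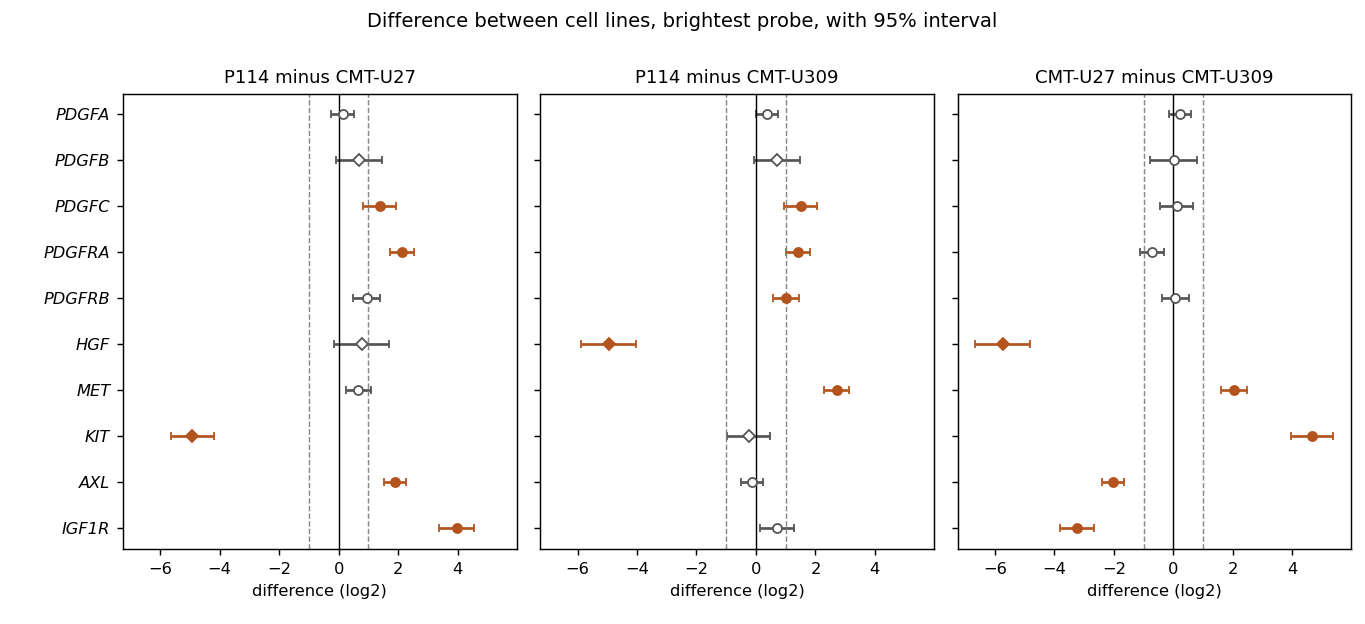
Difference between cell lines in log2 level (horizontal axis) of the brightest probe of each gene (vertical axis), in 1 panel for each pair of lines. Points are the fitted differences and bars their 95% intervals, filled points were called, dashed lines mark 2-fold, and diamonds mark pairs in which a line had no channel well above background, so that the value depends on the background. 5 genes were called in each panel.

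The probes of a gene could be compared for the 5 genes with more than 1. For KIT, IGF1R and PDGFRB the probes pointed the same way between CMT-U27 and P114. MET probes gave like differences against CMT-U309, 2.71 and 2.14 for P114 and 2.04 and 2.09 for CMT-U27. Only the AXL probes differed in direction among the comparisons that were called at the brightest probe, with 1.90 against -0.22 for P114 minus CMT-U27.

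**Figure D3:**
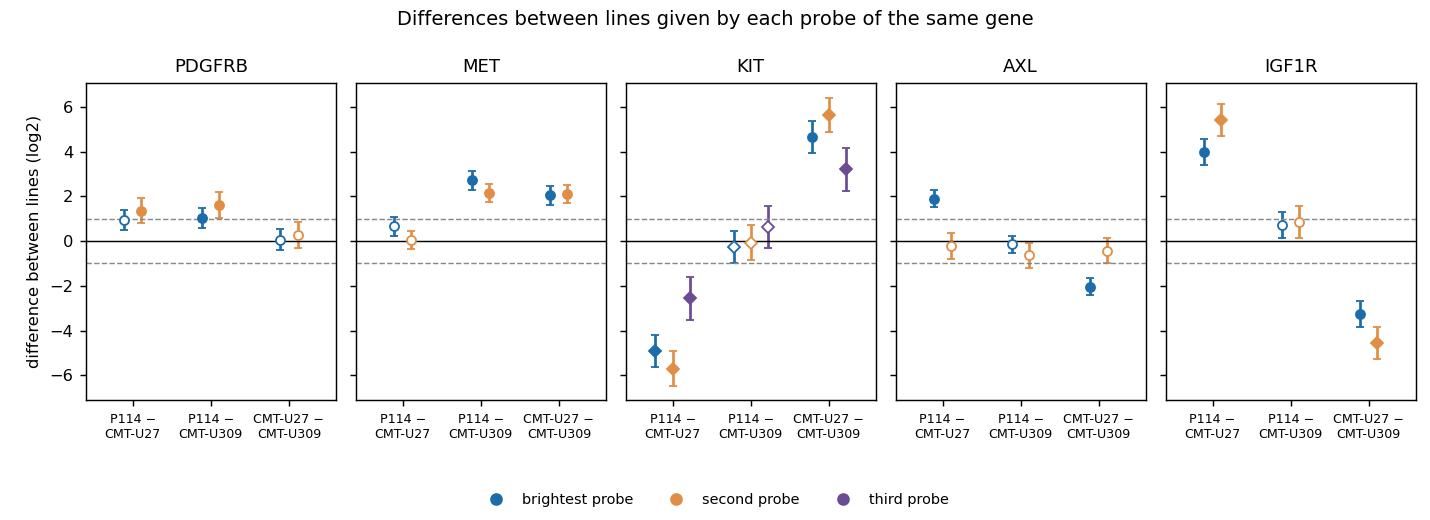
Difference between lines in log2 level (vertical axis) for each pair of lines (horizontal axis) at each probe of the 5 genes with more than 1 probe, with 95% intervals. Filled points were called, dashed lines mark 2-fold, and diamonds mark pairs in which a line had no channel well above background. The AXL probes part between CMT-U27 and the other lines, and all KIT probes place CMT-U27 above both.

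Co-culture with MDSCs changed none of the 10 genes past the thresholds of the methods, an unadjusted p under 0.05 with a fold change over 2. The mean log2 ratio of co-culture over monoculture over the 3 lines ran from -0.34 for HGF to 0.34 for IGF1R at the brightest probe, with a median of 0.05. Among all 40873 probes tested, 1.22% were called, 421 higher and 78 lower, and the median ratio was 0.0089. After Benjamini-Hochberg adjustment limma left 0 probes, with 4062 at an unadjusted p under 0.05, and the methods' t-test called 118 probes at the same thresholds. Over the 16 member probes the adjusted p lay between 0.498 and 0.969. The same RNA pair enters both arrays of a line, so that the 3 lines are the replicates of this test.

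For the 7 genes well above background in all 12 channels, the interval of the mean ratio at the brightest probe left out a 2-fold change. For PDGFA the ratio was -0.02 (95% interval -0.32 to 0.29), for AXL -0.04 (-0.35 to 0.26), for PDGFRA 0.11 (-0.21 to 0.44) and for PDGFRB -0.14 (-0.51 to 0.23). MET stood at 0.30 (-0.05 to 0.64), IGF1R at 0.34 (-0.13 to 0.81) and PDGFC at 0.13 (-0.32 to 0.59). Without P114 the IGF1R ratio was 0.70 (adjusted p = 0.00511 in limma), still under 2-fold, and without CMT-U27 it was 0.09. HGF, KIT and PDGFB had no signal above background in some lines, so that their mean ratios and intervals rest in part on background. The intervals were -1.09 to 0.42 (HGF), -0.82 to 0.35 (KIT) and -0.39 to 0.89 (PDGFB). They are therefore not used to leave out a 2-fold change. Among the other probes, the second PDGFRB probe had a ratio of -0.58 (SE 0.21, unadjusted p = 0.0204 and adjusted p = 0.498 in limma). Its 95% interval, -1.05 to -0.11, does not leave out a 2-fold fall, unlike that of the brightest probe. The mean ratio of this second probe was below 0 in P114 (-0.66), CMT-U27 (-0.35) and CMT-U309 (-0.73). It was lower on 4 of 6 arrays, detected in 10 of 12 channels, and not called.

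On single arrays the ratios were larger than these means and often differed in sign between the replicates of a line. For PDGFA the replicates of P114 gave 0.24 and -0.31, those of CMT-U27 0.19 and -0.36 and those of CMT-U309 -0.14 and 0.26. For PDGFRB they were 0.52 and -0.24, then 0.05 and -0.33, and -0.37 and -0.46 in the same order of lines. Over all probes tested, both replicates had the same sign for 38.6% of probes (P114), 62.7% (CMT-U27) and 52% (CMT-U309). The correlation of the log2 ratios between the replicates, across probes, was -0.39, 0.26 and -0.09.

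The brightest probes of IGF1R, PDGFC and PDGFRA had the same sign pattern over the arrays. Each was lower in co-culture on both P114 arrays and higher on all 4 arrays of the other lines. IGF1R had -0.27 and -0.51 in P114, against 0.54 and 1.13 for CMT-U27 and 0.67 and 0.47 for CMT-U309. PDGFC had -0.55 and -0.23, then 1.01 and 0.22, and 0.22 and 0.12. PDGFRA had -0.25 and -0.26, then 0.35 and 0.27, and 0.33 and 0.23. The second IGF1R probe did not have it, with -0.04 and -1.18, then 1.37 and -0.11, and 0.71 and 0.26. This pattern was found for 4.26% of all probes tested and for 6.3% of the 20740 probes well above background in all 12 channels. It was seen for the same 3 genes without scaling of the channels and for 0 of 10 with normexp background correction and loess.

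In single lines with a detected signal, HGF in CMT-U309 had ratios of -0.73 and -0.96. KIT in CMT-U27 had 0.33 and 0.24 at the brightest probe and 0.37 and 0.19 at the second, and the third, also detected there, had -0.005 and 0.55. MET in CMT-U27 had 0.74 and 0.54 at the brightest probe, against -0.67 and 0.04 at the second, so that the MET probes differed in direction. A line has a single culture pair, so these values have no test. In RNA from bulk cultures, fewer cells of a kind and less RNA per cell cannot be told apart.

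**Figure D4:**
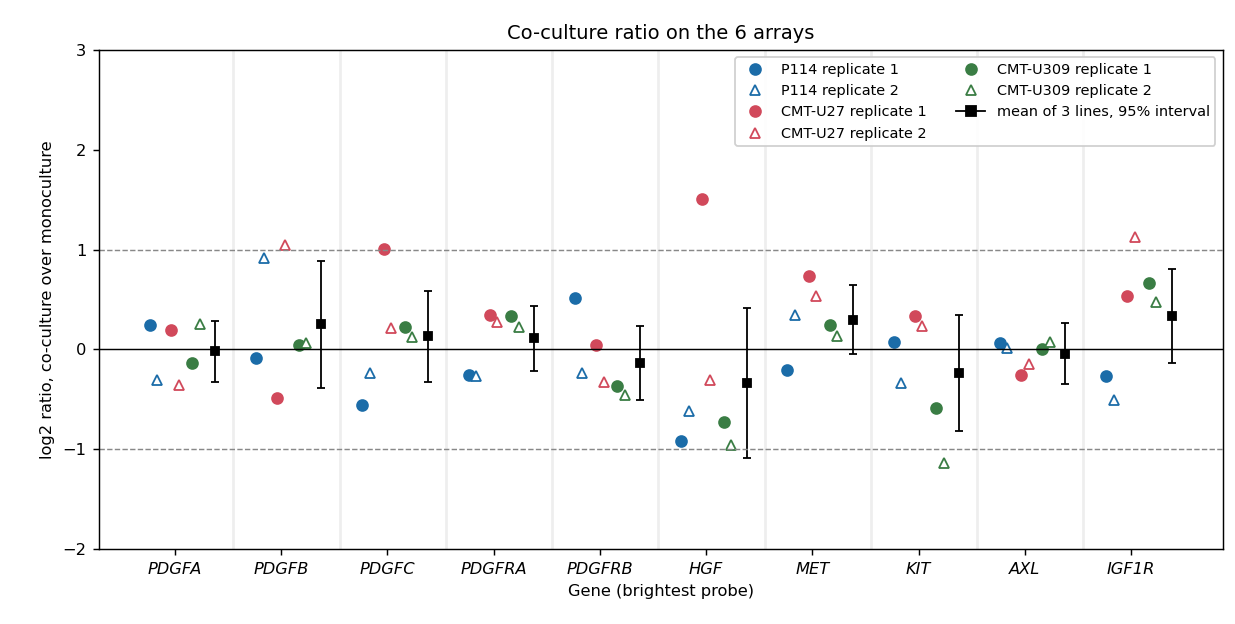
Log2 ratio of co-culture over monoculture (vertical axis) for the brightest probe of each gene (horizontal axis) on each of the 6 arrays. Colors mark the cell line, circles replicate 1 and triangles replicate 2, the black squares with bars are the mean of the 3 lines with its 95% interval, and dashed lines mark 2-fold. Every mean lies between -0.34 and 0.34, while single arrays reach from -1.14 for KIT to 1.50 for HGF.

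MDSC RNA in the co-culture samples was looked at through 9 myeloid markers on the array. ITGAM, which encodes CD11b, and LYZ were well above background in 0 of 12 channels, AIF1 in 1 and PTPRC, which encodes CD45, in 3, all of CMT-U309. CD68 and S100A8 were detected in all 12, CYBB in 11, S100A9 in 9 and MPO in 6. The summed signal of the list, as log2, ranged in P114 from 10.54 to 10.82 in co-culture and from 10.62 to 10.73 in monoculture. For CMT-U27 it was 13.73 to 13.74 and 12.93 to 12.98, higher in co-culture, and for CMT-U309 it was 11.17 to 11.28 and 11.04 to 11.23. The largest term of the CMT-U27 sum was S100A8, at a mean level of 13.06 over its 4 channels, all well above background. CD68 came next, at 10.20. S100A9 (mean level 9.03) and CYBB (6.16) were also detected in all 4 CMT-U27 channels and MPO in 2, while PTPRC, ITGAM, LYZ and AIF1 were detected in 0. The brightest probes of KIT, MET, IGF1R, PDGFC and PDGFRA were also higher in co-culture on both CMT-U27 arrays. The part of the summed signal in these ratios was not tested. The mean ratio of S100A8 over the 3 lines was 0.09, which does not give its change in CMT-U27 alone. 0 of 9 myeloid markers and 0 of 9 endothelial and pericyte markers were called in co-culture.

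The remaining ligands and receptors of these systems were covered by 16 genes on the array of 20 listed. KITLG, the ligand gene of KIT, was well above background in all 12 channels, at mean levels of 7.57 (P114), 8.78 (CMT-U27) and 9.30 (CMT-U309), and was called lower in P114 than in CMT-U27 (-1.21) and than in CMT-U309 (-1.73). IGF1, a ligand of IGF1R, was well above background in 0 channels of CMT-U27, 2 of P114 and 3 of CMT-U309, and IGF2 in 1 of each line. INSR, the insulin receptor gene and closest relative of IGF1R, was likewise not detected in CMT-U27 and was at least 3.31-fold higher in P114 and at least 5.98-fold higher in CMT-U309. PDGFD was called lower in P114 than in CMT-U27 (-1.22) and CMT-U309 (-1.16).

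The relatives of AXL differed between lines as well. MERTK, which like AXL and TYRO3 binds GAS6, was highest in CMT-U309 (8.88) and lowest in CMT-U27 (5.46), and CMT-U27 minus CMT-U309 was -3.43 on the log2 scale. TYRO3 was higher in CMT-U27 (8.05) than in P114 (6.59) and CMT-U309 (6.52). PROS1, which encodes protein S, a ligand of MERTK and TYRO3, was not detected in P114 and was at least 11.4-fold higher in CMT-U27 and at least 7.27-fold higher in CMT-U309. CSF1, a growth factor of macrophages, was higher in P114 than in CMT-U27 by 2.54 and than in CMT-U309 by 2.42. Of the 16 genes, 9 were called between P114 and CMT-U27, 6 between P114 and CMT-U309 and 6 between CMT-U27 and CMT-U309. Over all probes the shares called were 24.2%, 14.5% and 28.9%.

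HGF is secreted as an inactive chain that proteases cleave, and 7 genes of this step and its inhibitors were on the array. Of these, 4 were called higher in P114 than in CMT-U27 and 2 lower, beside 24.2% of all probes called in either direction. The median difference was 1.13 against 0.15 over all probes. PLAU, the urokinase gene (4.82), and PLAUR, the gene of its receptor (4.01), were among those lower in CMT-U27. SPINT2, an inhibitor of HGF activator, went the other way and was higher in CMT-U27 than in CMT-U309 by 4.04. Between P114 and CMT-U309 PLAU alone of the 7 was called, at 2.78, a share close to the 14.5% of all probes.

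Among 6 binding proteins of the insulin-like growth factors, 3 were called higher in P114 than in CMT-U27 and none lower. They were IGFBP7 (6.31), IGFBP4 (6.21) and IGFBP5 (1.39). Over all probes 24.2% were called in either direction between these lines. IGFBP2 was highest in CMT-U309, where its mean level was 14.38 against 5.44 in P114, detected in 3 of 4 channels, and 6.34 in CMT-U27. In co-culture IGFBP2 had a mean ratio of 0.53 (SE 0.17, adjusted p = 0.498 in limma), which does not reach 2-fold. It was higher on 6 of 6 arrays, and its ratio on replicate 1 of CMT-U309 was 1.27, past 2-fold.

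Of 26 adaptors and downstream signalling genes, 1 was called higher and 5 lower in P114 than in CMT-U27, and 1 was called higher in P114 than in CMT-U309. Between CMT-U27 and CMT-U309, 8 were called higher and 1 lower. Over all probes 24.2%, 14.5% and 28.9% were called in these comparisons, so that the count between P114 and CMT-U27 is close to that of all probes. PIK3R1, the regulatory subunit of PI3K that binds these receptors, was higher in CMT-U27, with -3.37 for P114 minus CMT-U27 and 2.63 for CMT-U27 minus CMT-U309 on the log2 scale. BRAF was higher in CMT-U27 than in CMT-U309 by 2.26, and the adaptor gene SHC1 was higher in P114 than in CMT-U27 by 1.86. AKT1, the lowest of the list in co-culture, had a mean ratio of -0.32 that came from P114 (-0.94 and -1.08), and it was not called.

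Of 17 genes of receptor turnover and inhibition, 2 were called in each direction between P114 and CMT-U27, a share close to the 24.2% of all probes. GRB14, an adaptor that inhibits insulin receptor family kinases, was detected in 1 of 4 P114 channels and was lower there than in CMT-U27 (-5.86). ERRFI1, an inhibitor of EGF receptors, was called higher in P114 than in both other lines, by 2.87 over CMT-U309. PTPRJ, a receptor phosphatase that acts on MET and PDGF receptors, was higher in P114 than in CMT-U309 by 3.32.

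In co-culture, none of the genes in these 5 lists was called. The medians of the mean log2 ratio were -0.10 for the ligands and receptors, 0.12 for HGF activation, 0.06 for the binding proteins, 0.03 for the adaptors and 0.04 for turnover and inhibition, beside 0.0089 over all probes. Among the binding proteins, unadjusted p was under 0.05 for IGFBP2 alone. Among genes detected in at least 6 channels, the lowest mean ratio in the lists was -0.73, for SPRY4, a feedback inhibitor of receptor kinase signalling. SPRY4 was well above background in 2 channels of P114, 1 of CMT-U27 and 3 of CMT-U309, so that its ratio rests in part on background. Its replicates gave -0.13 and -2.40 in P114, -0.26 and -1.46 in CMT-U27, and -0.20 and 0.04 in CMT-U309.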

How the data were processed

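RNA of 3 canine mammary tumor lines was compared on 6 Agilent canine 4x44K arrays. The authors deposited 1 scanner file per array, made by Feature Extraction (version 10.10.1.1 in the file headers, 10.7.3.1 in the submitters' processing notes), which holds a processed signal intensity per dye, already corrected for background, spatial trend and dye, with low signals set to surrogate values. A deposited table of log10 ratios equals these ratios turned to co-culture over monoculture (largest difference 4.997e-06) and is not scaled between arrays. Other deposited columns hold flags, positions and names.

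All channels were brought to 1 median. Control and outlier spots were dropped, as were probes whose highest intensity was 10 or lower, repeated spots and then the dye-swap were averaged, and the mean of the 3 lines was tested against 0. Levels of the 6 RNA samples were fitted with line and culture. Both fits used limma (version 3.58.1, R 4.3.3; eBayes with a trend) with Benjamini-Hochberg adjustment over 40873 probes, and both were tested on simulated data. Thresholds of the methods (p under 0.05, fold over 2) were applied to unadjusted p in co-culture. No label says that lines had further cultures, so p-values measure the spread between these samples.

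The brightest probe over 12 channels stands for a gene. From each further list the text names genes past the thresholds, those with the highest and lowest co-culture ratio among genes detected in at least 6 channels, and up to 3 with the largest difference called between lines; KITLG, IGF1, IGF2, TYRO3 and PDGFD were added after their values were seen. Some genes this rule picks are not reported here. Markers are counted per line. Members and lists were chosen with earlier results of these data known. Symbols are those of the files, and all 10 are in the RefSeq dog gene table (UU_Cfam_GSD_1.0), of which no coordinates are given. Alternatives were normexp (offset 50) with loess, no scaling, quantile normalization, the deposited ratios, other filters on low signal, no trend, the methods' t-test, outliers kept, a replicate block, the median over a gene's probes, and lines or arrays left out. Plots were drawn with matplotlib 3.10.9.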

Additional observations from a re-analysis of the deposited data

Results flagged for a closer look

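HGF on replicate 1 of CMT-U27 had a log2 co-culture ratio of 1.50, far from its values on the other 5 arrays (-0.96 to -0.30), between channels that were not well above background. The second KIT probe on replicate 1 of P114 stood apart in the same way at -1.35, again without a detected signal in either channel. Chance flags about 1 in 20 such groups.

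For 5 genes every array of a line moved against every array of another line in co-culture, and these differences were not tested. The share of all probes that meet this rule is not given here, so the count is not read as a result about these genes. IGF1R (mean -0.39), PDGFC (-0.39) and PDGFRA (-0.26) were lower on both P114 arrays and higher on the arrays of the other lines. AXL was higher on both P114 arrays, by a mean of 0.04, and lower on both CMT-U27 arrays (-0.20). KIT was higher on both CMT-U27 arrays, by a mean of 0.28, and lower on both CMT-U309 arrays (-0.86), where its co-culture channels were not well above background.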

How the results depend on the processing

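In co-culture 0 of the 10 genes was called under every alternative run, while the count over all probes (499) was 3 with normexp and loess, 89 among probes detected in at least 6 channels, 118 with the methods' t-test, and 2678 without P114, 215 without CMT-U27 and 319 without CMT-U309. The mean ratio changed sign for KIT with normexp and loess (0.017) and with the probe median (0.057), and for AXL with the probe median (0.035). With a line left out it ran across 0 for AXL (-0.082 to 0.037), PDGFA (-0.058 to 0.014) and PDGFC (-0.11 to 0.39), which turned without CMT-U27, and for KIT (-0.49 to 0.078) and PDGFRB (-0.28 to 0.0008), which turned without CMT-U309. IGF1R ran from 0.091 without CMT-U27 to 0.70 without P114 (adjusted p = 0.00511 in limma, under 2-fold), and HGF from -0.80 without CMT-U27 to -0.083 without CMT-U309. The sign pattern shared by 3 genes was seen for 0 with normexp and loess. Between lines, normexp with loess and Aquantile lowered the calls over all probes to 3618 (P114 and CMT-U27), 2000 (P114 and CMT-U309) and 4252 (CMT-U27 and CMT-U309), and the genes called between P114 and CMT-U309 to 3. Its offset is added to both channels and shrinks differences of dim probes. Differences that were not called turned sign for HGF between P114 and CMT-U27 with it (-0.054) and for KIT between P114 and CMT-U309 with quantile normalization (0.054). With an array left out they ran across 0 for that KIT difference (-1.11, called, without replicate 1 of P114, to 0.61 without replicate 2) and, between CMT-U27 and CMT-U309, for PDGFB (-0.27 to 0.29) and PDGFC (-0.090 to 0.31) without replicate 2 of CMT-U27, PDGFB also without replicate 1 of CMT-U309 (-0.044), and PDGFRB (-0.18 to 0.32) without replicate 1 of CMT-U27. The cause was not tested. The replicate number marks the dye, and arrays of the same number correlated across lines at -0.22, 0.03 and 0.40 (replicate 1) and 0.47, 0.51 and 0.61 (replicate 2). A fit with the replicate block gave 542 probes and 0 of 10 genes in co-culture, and 9591, 5750 and 11544 probes with 5 genes each between lines, and changed no call among the 10 genes. The share of spots well above background, 53% to 81% by channel, limits HGF, KIT and PDGFB.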
